A study of Homo sapiens with 8 samples.

Results

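The subunit genes of RNA polymerases I, II and III were followed in SK-UT-1 cells, an established line from a uterine leiomyosarcoma, after TP-472 or vehicle. Members were the genes whose symbol is POLR1, POLR2 or POLR3 followed by a letter and at most one digit or L, so that the name alone decides membership. The rule found 33 genes with 31 symbols among 60282 genes listed, because POLR2J3 and POLR2J4 each stand under 2 gene identifiers. By polymerase these were 3 genes of Pol I alone, 2 shared by Pol I and Pol III, 5 shared by all of them, 13 of Pol II alone and 10 of Pol III alone. Subunits with other symbols (TWISTNB, CD3EAP, ZNRD1 and CRCP) were outside the rule and are given at the end of the Pol III results.

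Cells received 5 uM TP-472, which the sample descriptions call a BRD9/7 inhibitor, or DMSO as vehicle, and RNA was sequenced after 48 h with 4 libraries in each group. BRD9 and BRD7 are bromodomain proteins and subunits of different BAF chromatin remodelling complexes. The treated cells and the vehicle cells were of the same line, which is 1 tumour line, and only 1 dose and 1 time were measured. The paper describes its experiments in general as done with biological replicates, but nothing in the sample descriptions says which libraries came from separate cultures, so the p-values measure only the spread between these libraries, which may be technical. In such bulk RNA, fewer cells with a transcript and less of it per cell cannot be told apart.

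Pol I transcribes the large ribosomal RNA precursor, Pol II transcribes messenger RNAs and many small nuclear RNAs, and Pol III transcribes transfer RNAs, 5S ribosomal RNA and other short RNAs. Each enzyme has a catalytic core of a large A and a second B subunit, an assembly platform made of a pair of smaller subunits, a set of small subunits common to all of them, and a stalk that binds the emerging transcript. Pol I and Pol III carry additional subunits that take the place of separate initiation and elongation factors of Pol II. The output of Pol I and Pol III is tied to cell growth in many tissues.

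The libraries held 32574716 to 38545695 estimated counts. Levels are given as CPM (estimated counts brought to one library size), and values are listed in the order of replicates 1 to 4. The test was the quasi-likelihood test of edgeR across 14073 genes, and a gene was called when its adjusted p was under 0.05 and its fold change over 1.5. All 33 subunit genes passed the filter on low counts, so none was left out. The least abundant of them had 546 counts summed over the 8 libraries.

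Vehicle replicate 3 stood apart from the other libraries. Its median Spearman correlation with the other vehicle libraries was 0.914, against at least 0.988 for every other library with its own group. Among the subunit genes, vehicle replicate 3 was the highest vehicle library for 15 genes and the lowest for 16. It lay more than 1.5 times above the mean of the other vehicle libraries for 8 genes and more than 1.5 times below it for 8. The order followed base composition, with a Pearson r of 0.633 (Spearman rho 0.617) across the 33 genes between their GC content and the log2 ratio of this library to the other vehicle libraries. Over 13970 tested genes the same relation had an r of 0.749 (rho 0.782), so it was not particular to the subunit genes. The genes share these libraries and are not independent, so no p is given. Each main count is therefore also given without vehicle replicate 3. Vehicle replicate 1 departed too, with a limma quality weight of 0.352 against 2.41 and 4.36 for vehicle replicates 2 and 4. That of vehicle replicate 3 was 0.0306, and a low weight marks a library far from its group.

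**Figure D1:**
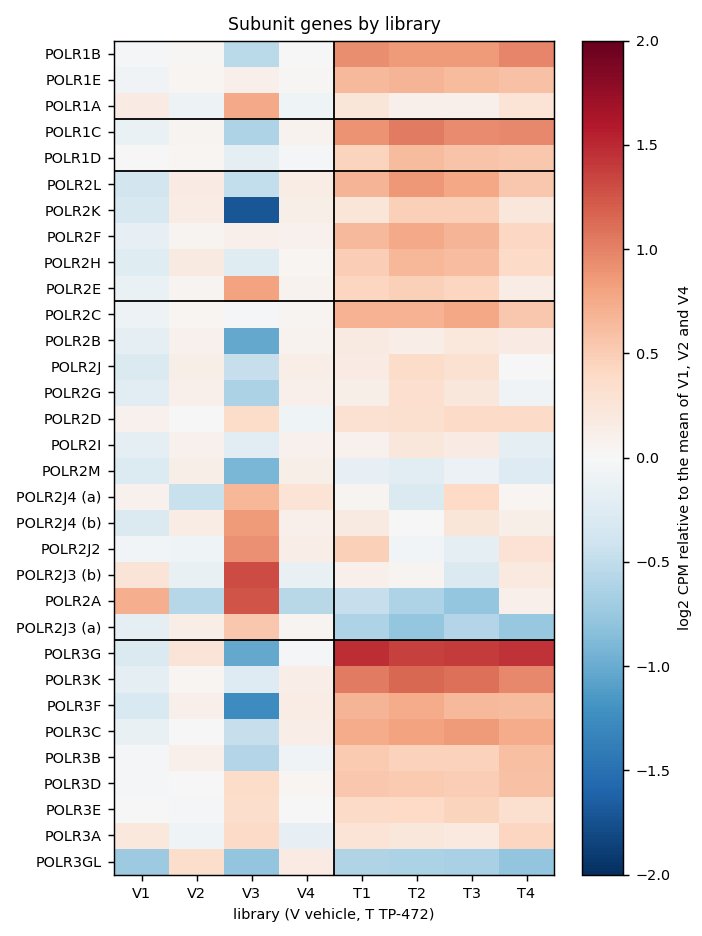
Level of 32 subunit genes in each library as log2 of CPM over the mean of vehicle replicates 1, 2 and 4 (red higher, blue lower; V vehicle, T TP-472), with lines between the polymerase groups; (a) and (b) after POLR2J3 mark ENSG00000168255 and ENSG00000285437, and after POLR2J4 ENSG00000214783 and ENSG00000272655. Column V3 departs from the other vehicle columns in both directions, while the 4 TP-472 columns resemble each other.

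With TP-472, 13 of the 33 subunit genes were called higher and 1 was called lower. Among all genes tested, 12.0% were called higher and 14.9% lower. The median log2 fold change was 0.32 over the 33 genes and -0.03 over all genes tested, and 24 of the 33 were above 0. The genes called higher were POLR1B, POLR1E, POLR1C, POLR1D, POLR2F, POLR2H, POLR2L, POLR2C, POLR3B, POLR3C, POLR3F, POLR3G and POLR3K, and the gene called lower was one of the POLR2J3 entries. In 16 of the 33 the groups did not overlap and TP-472 was higher, and in 1 they did not overlap and TP-472 was lower, against 23.8% and 21.6% of all genes tested. Without vehicle replicate 3, 10 were called higher and 2 lower, where 12.0% and 13.4% of all genes tested were called. POLR1D, POLR2H and POLR3B then dropped under the fold limit, with log2 fold changes of 0.55, 0.54 and 0.52, and POLR3GL was added to those called lower. Without vehicle replicate 1 instead, 9 were called higher and 1 lower, where 9.91% and 12.2% of all genes tested were called.

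**Figure D2:**
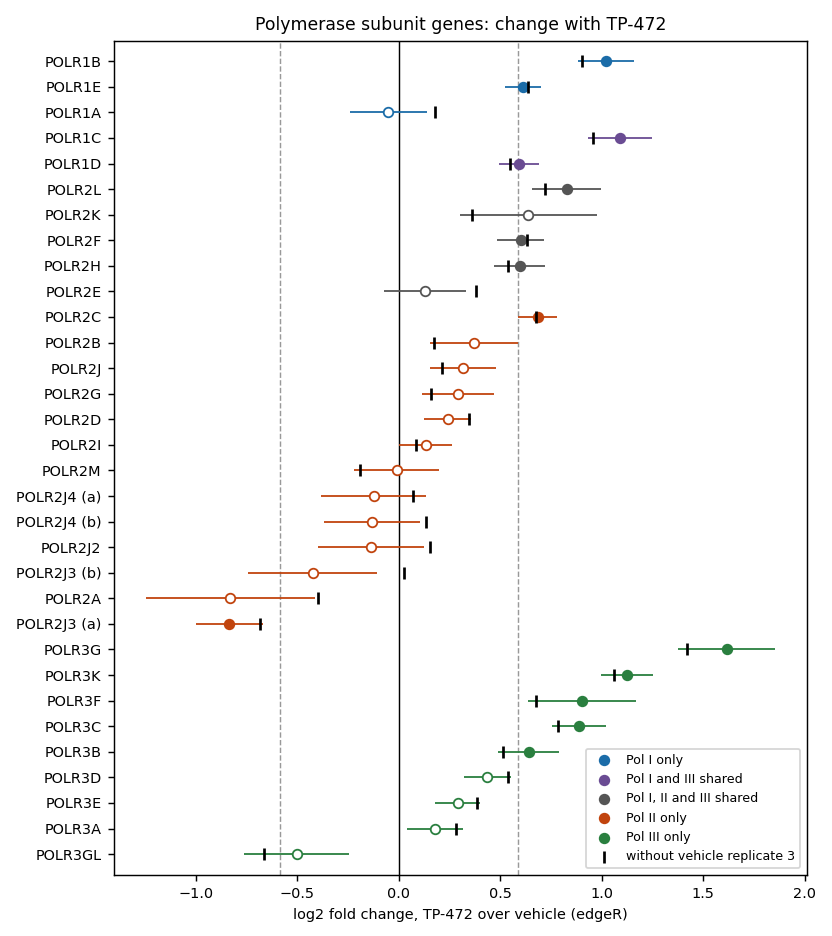
Log2 fold change (TP-472 over vehicle, horizontal axis) of 32 subunit genes with its standard error, by polymerase; filled points were called, open points were not, dashed lines mark 1.5-fold in each direction, and black ticks give the estimate without vehicle replicate 3. The filled points to the right number 13 and lie between 0.59 and 1.62, and 12 of them belong to Pol I, Pol III or the shared subunits.

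By enzyme, genes called higher were 2 of 3 for Pol I alone, 2 of 2 for the subunits common to Pol I and Pol III, 3 of 5 for those common to all, 1 of 13 for Pol II alone and 5 of 10 for Pol III alone. These shares stand beside 12.0% of all genes tested, and the single Pol II gene is under that share. The median log2 fold changes of the groups were 0.61, 0.84, 0.60, -0.01 and 0.54. No test of the difference between the groups was made, and 5 of the 13 Pol II genes are POLR2J paralogs, whose reads are hard to assign. The 2 POLR2J4 entries are annotated as a processed transcript and a transcribed pseudogene, and POLR2M encodes a Pol II-associated protein. The Pol II median of -0.01 includes all of these. Outside them, log2 fold changes were -0.83 for POLR2A and 0.13 to 0.68 for POLR2B, POLR2C, POLR2D, POLR2G, POLR2I and POLR2J. The genes under the rule were also counted by enzyme, which leaves out TWISTNB, CD3EAP, ZNRD1 and CRCP. With the shared subunits included, 7 of 10 genes of Pol I, 10 of 17 of Pol III and 4 of 18 of Pol II were called higher. These were 5, 7 and 3 without vehicle replicate 3, with 12.0% of all genes tested called higher in that fit too.

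In Pol I the second subunit doubled in level, while the largest did not pass the test. POLR1B, the second core subunit (GRCh38 chr2:112541915-112577150, plus strand), was at 69.3, 72.7, 48.9 and 71.8 CPM with vehicle and at 136, 129, 129 and 140 CPM with TP-472. All 4 treated libraries were far above all 4 vehicle libraries, and the log2 fold change was 1.02 ± 0.14 (SE, n = 4 per group, edgeR adjusted p = 0.000975). Leaving out each library in turn kept it between 0.90 and 1.07. POLR1A, the largest subunit, which forms the active site together with POLR1B (chr2:86020216-86106155, minus strand), was at 148, 122, 222 and 124 CPM with vehicle and at 155, 140, 140 and 158 CPM with TP-472. The groups overlapped, and the log2 fold change was -0.05 ± 0.19 (edgeR adjusted p = 0.849). Without vehicle replicate 3, its highest library, the estimate for POLR1A was 0.18 (edgeR adjusted p = 0.0944).

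POLR1E, a subunit that acts in Pol I initiation and elongation as part of a pair with the product of CD3EAP, was at 44.2, 47.7, 49.6 and 46.8 CPM with vehicle and at 72.2, 74.5, 71.9 and 69.1 CPM with TP-472. The spread was small in both groups and they did not overlap, with a log2 fold change of 0.61 ± 0.09 (edgeR adjusted p = 0.00129). Its call was lost without vehicle replicate 1 and with total-count scaling, with a log2 fold change of 0.58 in each. It was called in 18 of the 20 alternatives that used the same limits. The estimate was 0.64 without vehicle replicate 3, its highest vehicle library.

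**Figure D3:**
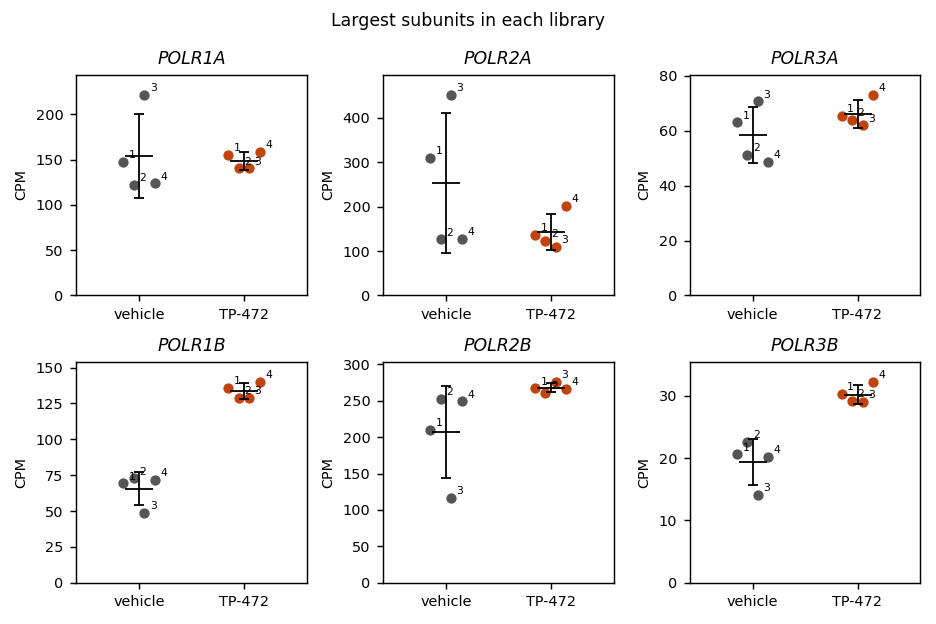
Level in CPM (vertical axes, from 0) of the A (upper row) and B (lower row) subunit of each polymerase in the 4 vehicle and 4 TP-472 libraries, numbered by replicate, with the mean and SD of each group. POLR1B and POLR3B have no overlap between the groups and were called higher, POLR3B only with vehicle replicate 3 included, POLR2B has no overlap but was not called, and POLR2A is high in vehicle replicates 1 and 3 only.

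The pair of subunits that forms the assembly platform of both Pol I and Pol III rose together. POLR1C (chr6:43509702-43562419, plus strand) was at 17.9, 20.4, 12.8 and 20.4 CPM with vehicle and at 36.4, 40.1, 37.7 and 37.9 CPM with TP-472. Every treated library was well above the highest vehicle library, and the log2 fold change of 1.09 ± 0.16 (edgeR adjusted p = 0.00126) corresponded to a 2.13-fold rise. Its partner POLR1D was at 27.7, 28.7, 24.7 and 27.3 CPM with vehicle and at 37.9, 43.4, 41.4 and 40.6 CPM with TP-472. The groups did not overlap here either, but the rise was close to the fold limit, at 0.59 ± 0.10 on the log2 scale (edgeR adjusted p = 0.0026). POLR1D was called in 10 of the 20 alternatives that used the same limits, and POLR1C in all 20.

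Among the small subunits common to all 3 enzymes, POLR2L, POLR2F and POLR2H rose and POLR2E and POLR2K were not called. POLR2L, a small zinc-binding subunit that helps to anchor the assembly platform, was at 44.5, 63.9, 40.6 and 63.2 CPM with vehicle and at 91.2, 105, 97.8 and 83.2 CPM with TP-472. Vehicle replicates 1 and 3 were the low ones, and the log2 fold change was 0.83 ± 0.17 (edgeR adjusted p = 0.00644). POLR2F was at 30.3, 35.6, 36.8 and 36.4 CPM with vehicle and at 53.3, 57.9, 54.5 and 45.4 CPM with TP-472. Its groups did not overlap, and the log2 fold change was 0.60 ± 0.12 (edgeR adjusted p = 0.00472). POLR2H was at 61.5, 81.6, 61.5 and 74.1 CPM with vehicle and at 101, 114, 111 and 94.7 CPM with TP-472, a log2 fold change of 0.60 ± 0.13 (edgeR adjusted p = 0.00737). Both POLR2F and POLR2H sat just above the fold limit. POLR2F fell under it without vehicle replicate 1 or TP-472 replicate 2, and POLR2H without either of these, vehicle replicate 3 or TP-472 replicate 3. Both also fell under it with upper-quartile scaling, total-count scaling and a filter at 5 CPM, and POLR2H with quality weights. POLR2F was called in 15 and POLR2H in 12 of the 20 alternatives that used the same limits.

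POLR2K, the other zinc-binding subunit of this set, was at 36.8, 50.8, 14.0 and 49.7 CPM with vehicle and at 54.4, 64.0, 63.5 and 53.4 CPM with TP-472. All treated libraries were above all vehicle libraries, yet the spread among the vehicle libraries was wide and the log2 fold change of 0.64 ± 0.34 did not pass (edgeR adjusted p = 0.163). Without vehicle replicate 3 it was 0.36 (edgeR adjusted p = 0.0267), under the fold limit. POLR2E was at 83.4, 94.6, 160 and 95.7 CPM with vehicle and at 123, 127, 123 and 101 CPM with TP-472, with overlapping groups and a log2 fold change of 0.13 ± 0.20 (edgeR adjusted p = 0.633). Vehicle replicate 3 alone was above the treated libraries, and without it the estimate was 0.38 (edgeR adjusted p = 0.00576).

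Promoter sequence was compared among the members because many of them moved together. Of the 31 symbols, 21 had at least one RefSeq start site in the promoter table used here, with 27 windows of the 250 bases before the start. The ETS core CCGGAA, the short motif that ETS family factors recognise, was searched on both strands. It was present in 12 of the 27 windows, against 23.0% of 14792 windows of tested genes and 14.5% of all 34943 windows. By gene it was in 7 of 11 members called higher and in 4 of 10 not called. A GC box (GGGCGG, both strands) was in 21 of 27 windows, against 64.3% of windows of tested genes. It was in 8 of 11 members called higher and in 8 of 10 not called. An E-box (CACGTG) was in 2 windows, against 8.3%, and a TATAAA in 1 window, against 5.74%. The E-box was in 1 of 11 members called higher and 1 of 10 not called, and TATAAA in 0 and 1. None of the ETS matches overlapped a match of another motif. The motifs were chosen with the calls known, and a match describes letters only.

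The windows below (RefSeq, GRCh38.p14, 5′ to 3′ on the gene's strand, bases 250 to 31 before the start) are shown because they hold each combination: POLR2L was called higher and has the core, POLR1D was called higher and lacks it, POLR3A was not called and has it, and POLR2E was not called and lacks it. They were also chosen to hold no base of an annotated exon. Capitals mark the ETS core. The windows are chr11:842560-842779 (minus strand) for POLR2L, chr13:27620493-27620712 (plus strand) for POLR1D, chr10:78029546-78029765 (minus strand) for POLR3A and chr19:1095406-1095625 (minus strand) for POLR2E.
POLR2L: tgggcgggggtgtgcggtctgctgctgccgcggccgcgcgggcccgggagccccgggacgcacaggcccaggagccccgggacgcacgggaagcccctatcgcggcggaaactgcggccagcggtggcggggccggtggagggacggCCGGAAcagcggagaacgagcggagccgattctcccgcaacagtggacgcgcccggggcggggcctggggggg
POLR1D: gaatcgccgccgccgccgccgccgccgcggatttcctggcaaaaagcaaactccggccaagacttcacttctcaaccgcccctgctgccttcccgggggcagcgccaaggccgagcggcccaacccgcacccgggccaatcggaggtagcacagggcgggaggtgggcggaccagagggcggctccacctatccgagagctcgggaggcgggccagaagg
POLR3A: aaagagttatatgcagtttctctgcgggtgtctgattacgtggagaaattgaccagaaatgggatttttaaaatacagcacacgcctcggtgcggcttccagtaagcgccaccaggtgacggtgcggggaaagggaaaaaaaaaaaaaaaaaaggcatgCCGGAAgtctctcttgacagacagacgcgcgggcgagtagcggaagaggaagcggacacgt
POLR2E: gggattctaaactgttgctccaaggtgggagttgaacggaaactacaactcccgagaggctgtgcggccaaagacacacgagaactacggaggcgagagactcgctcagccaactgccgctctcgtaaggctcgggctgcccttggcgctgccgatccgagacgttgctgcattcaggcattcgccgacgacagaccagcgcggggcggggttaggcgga
The core lies 103 bases before the start in POLR2L and 91 bases before it in POLR3A.

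Of the 13 genes of Pol II alone, 1 was called higher and 1 lower. POLR2C, the assembly platform subunit of Pol II, was at 36.8, 40.4, 38.7 and 41.2 CPM with vehicle and at 63.6, 64.1, 67.2 and 57.4 CPM with TP-472. Vehicle replicate 3 was within the range of the other vehicle libraries for this gene, and the log2 fold change was 0.68 ± 0.10 (edgeR adjusted p = 0.00115) with it and 0.68 without it. Its partner in the platform, POLR2J, was at 23.6 to 35.6 CPM in the vehicle libraries around a mean of 30.3 ± 6.11 (SD), and at 37.7 ± 4.18 (SD) with TP-472. The groups overlapped, and its log2 fold change of 0.32 ± 0.16 was not called (edgeR adjusted p = 0.151).

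POLR2A, the largest subunit, whose C-terminal heptad repeats recruit capping, splicing and elongation factors (chr17:7484366-7514616, plus strand), was at 310, 127, 452 and 128 CPM with vehicle and at 136, 123, 110 and 202 CPM with TP-472. Vehicle replicates 1 and 3 were far above vehicle replicates 2 and 4, and the latter pair lay inside the treated range. The log2 fold change of -0.83 ± 0.42 was the second lowest of all members with all libraries but was not called (edgeR adjusted p = 0.144). Without vehicle replicate 3 it was -0.40 (edgeR adjusted p = 0.318), and with quality weights -0.06 (limma adjusted p = 0.731). POLR2B, the second core subunit (chr4:56977722-57031168, plus strand), was at 210, 252, 117 and 249 CPM with vehicle and at 267, 261, 276 and 267 CPM with TP-472. The groups did not overlap, but the gap to vehicle replicates 2 and 4 was small and the log2 fold change of 0.37 ± 0.22 did not pass (edgeR adjusted p = 0.206). It was 0.17 without vehicle replicate 3 (edgeR adjusted p = 0.0707). In vehicle replicate 3 the transcripts of the 2 largest Pol II subunits lay on opposite sides of the other libraries, POLR2A highest and POLR2B lowest.

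The stalk subunits POLR2D and POLR2G and the zinc-binding subunit POLR2I had log2 fold changes of 0.24, 0.29 and 0.13 (0.34, 0.16 and 0.08 without vehicle replicate 3), and none of these was called in either fit. POLR2M, which encodes the Pol II-associated protein Gdown1 and overlaps the read-through gene GCOM1, was at 58.0 ± 17.4 CPM (SD) with vehicle and 57.6 ± 2.38 CPM (SD) with TP-472. Its log2 fold change was -0.01 ± 0.21 (edgeR adjusted p = 0.971), and -0.19 without vehicle replicate 3.

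The POLR2J paralogs on chromosome 7 share most of their sequence, and overlapping gene models carry the same symbol, so the split of their estimated counts is uncertain. One POLR2J3 entry (ENSG00000168255, chr7:102537918-102572653, minus strand) was the only member called lower, at 14.2, 17.9, 23.6 and 16.9 CPM with vehicle and 10.6, 9.56, 10.9 and 9.7 CPM with TP-472. Every treated library was below every vehicle library, with a log2 fold change of -0.84 ± 0.16 (edgeR adjusted p = 0.00529). The estimate was -0.68 without vehicle replicate 3, the highest library of this entry. With the GC correction it was -0.57, under the fold limit, and the call was lost. The other POLR2J3 entry (ENSG00000285437), which lies inside it, was at 34.2, 25.6, 70.4 and 25.8 CPM with vehicle and 30.5, 29.7, 23.3 and 32.8 CPM with TP-472. It was not called (log2 fold change -0.42 ± 0.32, edgeR adjusted p = 0.314), and vehicle replicate 3 was its high library. POLR2J2 and both POLR2J4 entries had log2 fold changes of -0.14, -0.12 and -0.13 and were not called. Neither POLR2J4 entry is annotated as protein-coding.

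In Pol III the rise was found in subunits of the initiation module, in the zinc-binding subunit of transcript cleavage and in the second core subunit. POLR3K, which takes part in RNA cleavage and termination, was at 8.4, 9.95, 8.03 and 10.6 CPM with vehicle and at 19.8, 21.4, 20.7 and 18.7 CPM with TP-472. All treated libraries were well above all vehicle libraries, a 2.18-fold rise, and the log2 fold change was 1.12 ± 0.13 (edgeR adjusted p = 0.000446). POLR3B, the second core subunit (chr12:106357658-106510198, plus strand), was at 20.6, 22.6, 14.1 and 20.2 CPM with vehicle and at 30.3, 29.1, 29.0 and 32.2 CPM with TP-472. Its groups did not overlap and the log2 fold change was 0.64 ± 0.15 (edgeR adjusted p = 0.0115), but the call was lost without vehicle replicate 3 (0.52), with quality weights (0.50) and with the GC correction (0.50). POLR3A, the largest subunit (chr10:77969251-78029545, minus strand), was at 63.1, 51.1, 70.7 and 48.7 CPM with vehicle and at 65.4, 63.9, 61.9 and 73.2 CPM with TP-472. The groups overlapped and POLR3A was not called (log2 fold change 0.18 ± 0.14, edgeR adjusted p = 0.33), nor without vehicle replicate 3 (0.28, edgeR adjusted p = 0.0328).

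The initiation heterotrimer of Pol III, which opens the promoter, is built from POLR3C, POLR3F and either POLR3G or its paralog POLR3GL. POLR3C was at 26.6, 29.8, 21.6 and 32.4 CPM with vehicle and at 49.6, 51.9, 53.2 and 49.4 CPM with TP-472. Its log2 fold change was 0.89 ± 0.13 (edgeR adjusted p = 0.00161), with a clear gap between the groups. POLR3F was at 14.3, 18.9, 7.36 and 19.5 CPM with vehicle and at 28.2, 29.3, 27.6 and 27.1 CPM with TP-472. Its treated libraries were tight and above all vehicle libraries, and the log2 fold change was 0.90 ± 0.27 (edgeR adjusted p = 0.0279). The adjusted p of POLR3F rose to between 0.0585 and 0.0699 when vehicle replicate 1 or any single TP-472 library was left out. With quality weights it was at 0.583, just under the fold limit. POLR3F was called in 14 of the 20 alternatives that used the same limits.

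POLR3G, which is known for high expression in stem cells and in many tumour lines, had the largest rise of all 33 members. The gene (chr5:90471748-90514553, plus strand) was at 5.06, 7.37, 3.03 and 6.03 CPM with vehicle and at 17.1, 15.8, 16.2 and 16.7 CPM with TP-472. Its lowest treated library was more than 2-fold above its highest vehicle library, and the log2 fold change was 1.62 ± 0.24 (edgeR adjusted p = 0.00145), or 1.42 without vehicle replicate 3. POLR3GL, the form found in most differentiated tissues (chr1:145964702-145978848, plus strand), was at 12.8, 26.7, 12.2 and 23.7 CPM with vehicle and at 13.8, 13.6, 13.5 and 12.2 CPM with TP-472. Vehicle replicates 1 and 3 lay within the treated range or below it, and vehicle replicates 2 and 4 above it. The log2 fold change of -0.50 ± 0.26 was not called with all libraries (edgeR adjusted p = 0.152). It was called at -0.66 without vehicle replicate 3 (edgeR adjusted p = 0.0203) and at -0.82 with quality weights (limma adjusted p = 2.37e-05). In contrast, it was -0.29 without vehicle replicate 2 and -0.37 without vehicle replicate 4 (edgeR adjusted p = 0.359 and 0.301).

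The ratio of POLR3G to POLR3GL counts within a library did not overlap between the groups. It was 0.396, 0.276, 0.249 and 0.255 in the vehicle libraries and 1.24, 1.16, 1.2 and 1.37 in the TP-472 libraries. On the log2 scale the mean ratio was -1.79 ± 0.31 (SD) with vehicle and 0.31 ± 0.10 (SD) with TP-472, a difference of 2.10, or 2.03 without vehicle replicate 3. This pair was singled out after its values were seen, so the ratio is a description with no test. Per kilobase of annotated exon, POLR3G was at 1.34 CPM and POLR3GL at 10.5 CPM with vehicle, and they were at 4.10 and 7.38 CPM with TP-472, so POLR3GL remained the higher of them on the length-scaled level.

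**Figure D4:**
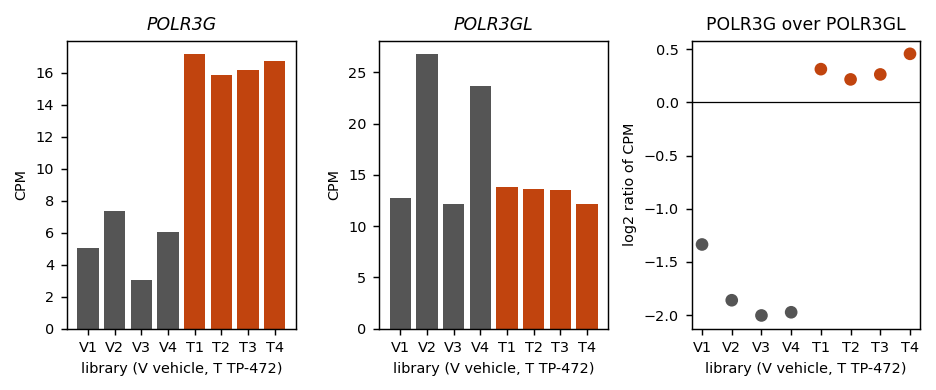
Level in CPM of POLR3G (left) and POLR3GL (middle) in each library, with bars from 0, and log2 of their ratio (right); grey is vehicle (V1 to V4) and orange TP-472 (T1 to T4). The ratio is below 0 in all 4 vehicle libraries, with the highest at -1.34, and above 0 in all 4 TP-472 libraries, between 0.22 and 0.46.

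POLR3D and POLR3E, a dimer that acts in initiation and termination, were not called and had log2 fold changes of 0.44 ± 0.12 and 0.29 ± 0.11. POLR3D passed the adjusted p (edgeR, 0.019) but not the fold limit, with 25.9, 26.1, 33.9 and 27.1 CPM with vehicle and 38.2, 38.0, 37.2 and 39.5 CPM with TP-472. POLR3E did not pass (edgeR adjusted p = 0.0703). For both genes vehicle replicate 3 was the highest vehicle library, and without it the estimates were 0.54 and 0.39 (edgeR adjusted p = 5.9e-05 and 0.00034), both still under the fold limit.

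Of the subunits listed under other symbols, a Pol I and a Pol III subunit rose. CD3EAP, the Pol I subunit that pairs with POLR1E, rose from 24.0 ± 8.08 to 60.4 ± 2.83 CPM (mean ± SD, n = 4 per group), with a log2 fold change of 1.33 ± 0.21 (edgeR adjusted p = 0.00194). CRCP, a subunit of the Pol III stalk, rose from 22.4 ± 6.86 to 36.7 ± 0.917 CPM (log2 fold change 0.71 ± 0.19, edgeR adjusted p = 0.0188). The Pol I stalk subunit TWISTNB and the Pol I cleavage subunit ZNRD1 had log2 fold changes of 0.39 and 0.35 (0.17 and 0.24 without vehicle replicate 3) and were not called. POLRMT, the separate mitochondrial polymerase, was not called either, at -0.30 with all libraries. Its sign turned without vehicle replicate 3 (0.20, edgeR adjusted p = 0.0493) and with the GC correction (0.29, edgeR adjusted p = 0.0133), both under the fold limit. For this gene vehicle replicate 3 was at 82.9 CPM and the other vehicle libraries were at 29.5 to 34.4 CPM.

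The factors that work with the polymerases were taken from lists written from general knowledge. Across 73 genes in 5 lists, 11 (15.1%) were called higher and 0 lower, with a median log2 fold change of 0.18, where 12.0% of all genes tested were called higher and 14.9% lower. Without vehicle replicate 3, 9 were called higher and 0 lower, against 12.0% and 13.4%. At an adjusted p under 0.05 with no fold limit, edgeR gave 18 of them above 0 and 0 below (4 below at an unadjusted p under 0.05), against 17.2% and 19.1% of all genes tested. Without vehicle replicate 3 the same limit gave 33 and 6, against 28.6% and 28.4% of all genes tested. DESeq2 and limma-voom each called 11 higher and 0 lower. Of all genes they tested, 11.6% and 12.9% were called higher and 12.5% and 13.1% lower. Fewer of the 73 were called higher with quality weights (8), a replicate block (9) and the GC correction (10), and 0 were called lower in each. All genes tested were called higher in 12.2%, 10.7% and 13.4% in these fits. Among the 7 Pol I factors, 1 was called: RRN3, which brings Pol I to the ribosomal DNA promoter, rose from 91.5 ± 26.4 to 169 ± 1.4 CPM (log2 fold change 0.88 ± 0.21, edgeR adjusted p = 0.011). UBTF, which binds the ribosomal DNA repeats, was not called, with a log2 fold change of -0.29 ± 0.20, or -0.04 without vehicle replicate 3, its high library at 227 CPM.

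Of 16 Pol III factors, 3 were called higher. SNAPC5 and SNAPC1, subunits of the complex that binds small nuclear RNA promoters, rose by 0.96 ± 0.16 and 0.60 ± 0.15 on the log2 scale, and BRF2, which serves Pol III promoters of the U6 type, rose by 0.72 ± 0.15. Their edgeR adjusted p values were 0.00288, 0.0141 and 0.00711. SNAPC1 fell under the fold limit without vehicle replicate 3, at 0.48, and with the GC correction, at 0.43. SNAPC2, of the same complex, was not called with all libraries (0.44, edgeR adjusted p = 0.209) and was called without vehicle replicate 3 (0.81, edgeR adjusted p = 9.7e-05), which left the count of this list at 3. SNAPC2 was named after its values were seen. The most abundant member per kilobase, the TFIIIC subunit GTF3C6, was not called (0.48 ± 0.19, or 0.31 without vehicle replicate 3). MAF1, the repressor of Pol III, was not called either, at -0.07 ± 0.16 with all libraries, 0.11 without vehicle replicate 3 and 0.29 with the GC correction, so its sign depended on the fit.

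Among 18 general factors of Pol II, GTF2A2 and GTF2B were called higher, with log2 fold changes of 0.76 ± 0.26 and 0.62 ± 0.20 (edgeR adjusted p = 0.0454 and 0.038). These are a subunit of TFIIA and the single protein of TFIIB, and both fell under the fold limit without vehicle replicate 3, at 0.54 and 0.45. The most abundant per kilobase, the TFIIF subunit GTF2F1, was not called (0.11 ± 0.18). It was at 0.33 without vehicle replicate 3 and at 0.45 with the GC correction (edgeR adjusted p = 0.00285 and 0.00065), both under the fold limit. Of 16 elongation factors only SUPT4H1, the small subunit of DSIF, was called, rising by 0.83 ± 0.21 (edgeR adjusted p = 0.0169), while the abundant FACT subunit SSRP1 was at 0.03 ± 0.10. Of 16 assembly and import factors, 4 were called higher: PDRG1, PFDN2, SLC7A6OS and GPN2. PDRG1, a prefoldin-like protein of the polymerase assembly complex, had the largest rise, from 18.0 ± 1.58 to 36.9 ± 2.62 CPM (log2 fold change 1.04 ± 0.11, edgeR adjusted p = 0.000325). RUVBL2, a helicase of the same complex and the most abundant per kilobase of that list with vehicle, was not called (-0.33 ± 0.23). Its estimate was -0.05 without vehicle replicate 3 and 0.03 with the GC correction.

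**Figure D5:**
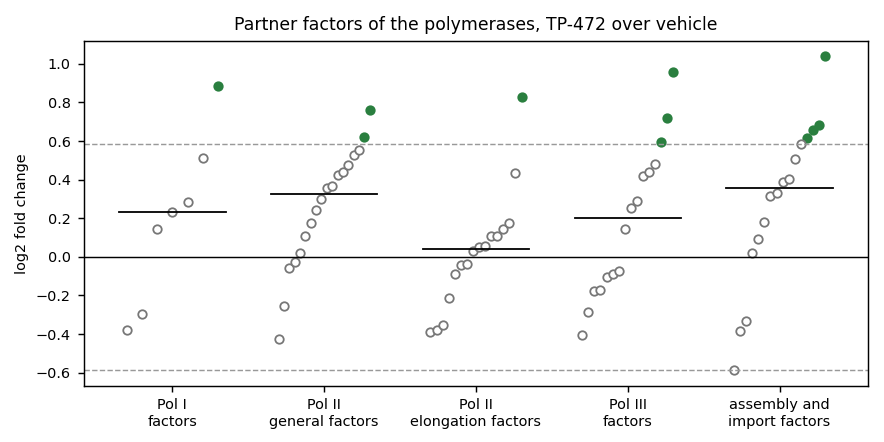
Log2 fold change (vertical axis) of each gene in 5 lists of partner factors; filled points were called higher, open points were not called, horizontal bars are list medians and dashed lines mark 1.5-fold. The filled points are 1 of 7, 2 of 18, 1 of 16, 3 of 16 and 4 of 16 genes from left to right, and no point below 0 was called.

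Variation within the groups was unequal across the 33 subunit genes. The SD was larger with vehicle than with TP-472 for 29 of them, with a median SD of 21.9% of the mean with vehicle and 6.43% with TP-472. Across the 33 genes, Pearson's r between log2 fold change and GC content was -0.432 (Spearman rho -0.435), and -0.295 (rho -0.268) without vehicle replicate 3. Over all tested genes with a GC value the first of these was -0.311. With exonic length, r was -0.112. The part of base composition in the changes was examined in one fit only: with a correction for GC content within each library, 11 members were called higher and 0 lower, against 13.4% and 14.8% of 13970 genes, and the median of the members was 0.49. POLR1D and POLR3B then lost their calls, at 0.48 and 0.50, POLR2E stood at 0.55 (edgeR adjusted p = 0.000876), under the fold limit, and the POLR2J3 entry stood at -0.57, under the fold limit (edgeR adjusted p = 0.00229).

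The labelled cell type was checked against marker genes. Of the smooth muscle markers, CALD1, ACTA2 and TAGLN were at 199 ± 15.3, 160 ± 16.6 and 32.2 ± 3.39 CPM with vehicle, but DES and CNN1 were at 3.24 and 1.25 CPM and MYH11 was near 0, at 0.00701 CPM. Smooth muscle markers summed to 438, 478, 522 and 480 CPM with vehicle and 379, 377, 372 and 370 CPM with TP-472. These sums were carried by CALD1, ACTA2 and SMTN, and in vehicle replicate 3 SMTN, at 158 CPM, was above ACTA2, at 145 CPM. Of the 7 tested, 3 were called lower and 0 higher, against 14.9% and 12.0% of all genes tested. DES, LMOD1 and TAGLN had log2 fold changes of -2.36, -1.84 and -0.67. Without vehicle replicate 3, 4 were called lower, against 13.4% of all genes tested. With the GC correction 2 were, against 14.8%, and TAGLN, at -0.45, was under the fold limit. Fibroblast markers summed to 1054, 1007, 1139 and 1019 CPM with vehicle and 259, 248, 259 and 235 CPM with TP-472. COL1A2 was the most abundant of them and fell with TP-472 by 2.58 on the log2 scale, as COL3A1 fell by 1.62, while DCN and LUM were at or near 0 in all libraries. COL1A1 had a log2 fold change of -2.35, or -1.46 without vehicle replicate 3, and PDGFRA was not called, at 0.20. Of the 4 fibroblast markers tested, 3 were called lower and 0 higher, against 14.9% and 12.0% of all genes tested. The epithelial markers KRT18 (called higher) and KRT19 (called lower) were at 7.37 and 8.86 CPM with vehicle. KRT19 was under the fold limit with the GC correction, at a log2 fold change of -0.52. KRT8 was not called with all libraries (0.52) but was called higher with the GC correction (0.74, edgeR adjusted p = 0.0254). Of the 3 epithelial markers tested, 1 was thus called higher and 1 lower in the main fit, against 12.0% and 14.9% of all genes tested. EPCAM and CDH1 were under 1 CPM. All 3 endothelial markers were under 1 CPM, and of the immune markers CD68 alone exceeded 1 CPM. These shifts moved with the treatment, and their part in the subunit results was not tested.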

How the data were processed

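Strand-specific total RNA libraries from SK-UT-1 cells (4 vehicle, 4 TP-472) were sequenced by the authors, who checked mapping with STAR, quantified transcripts with Salmon 1.4.0 against GRCh38 and summed them to genes with tximport and GENCODE. The values deposited by the authors are estimated counts per gene for 60282 genes, neither scaled nor filtered. Here each count was rounded. A gene was kept if it exceeded 1 CPM in 4 or more libraries (14073 genes), and TMM factors scaled the libraries. The groups were compared by quasi-likelihood in edgeR 4.0.16 (R 4.3.3, limma 3.58.1 and DESeq2 1.42.0 for alternatives), with Benjamini-Hochberg adjustment over all genes tested. The limits on adjusted p (0.05) and fold (1.5) are those of the paper, which names no test for these data.

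Coordinates, exonic lengths and GC content were taken from the GENCODE 29 annotation (GRCh38) through the unversioned Ensembl identifiers. The gene lists and the members were chosen with earlier results of these data known, so a direction seen before is not independent support. The values of 1 subunit gene are not reported here, although counts, medians and correlations over the members include it. The other subunit genes are named, with values per library for the A and B subunits, those called and the extremes of each enzyme. In the partner lists the called genes with the largest change and the genes with the highest vehicle mean per kilobase, all libraries included, are named. UBTF, MAF1 and SNAPC2 are named as well and meet neither of these rules. Alternatives covered scaling, filters, tools, fold limits, single libraries left out and a replicate block. A GC correction was added after the data were seen.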

Additional observations from a re-analysis of the deposited data

Results flagged for a closer look

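Within the groups of 4 libraries, 64 sets of values from 32 subunit genes were examined for a single library far from the others, by Dixon's ratio of gap to range at its 95% limit. A set of 4 passes that limit by chance about 1 time in 20, and 6 passed here, 5 of them for vehicle replicate 3. Vehicle replicate 3 was high for POLR3E (47.6 CPM, others 37.0 to 37.6), POLR2E (160 CPM, others 83.4 to 95.7), POLR3D (33.9 CPM, others 25.9 to 27.1) and POLR2J2 (9.33 CPM, others 4.64 to 5.41). It was low for POLR1B, at 48.9 CPM against 69.3 to 72.7 CPM in the others. In TP-472 replicate 4, POLR2E was at 101 CPM against at least 123 CPM in the other treated libraries. POLR1B was still called higher without vehicle replicate 3, at a log2 fold change of 0.90.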

How the results depend on the processing

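Of the 13 genes called higher, 7 (POLR1B, POLR1C, POLR2C, POLR2L, POLR3C, POLR3G and POLR3K) were called in all 20 alternatives that used the same limits, and all 13 were above 0 in every alternative. Raising the fold limit to 2 left 4 members higher and 0 lower (1704 genes called of all tested, 4.54% higher and 7.57% lower), and testing against a 1.5-fold change also left 4 and 0 (1123 genes, 3.76% and 4.22%). With no fold limit, edgeR gave 14 members higher and 1 lower at an adjusted p under 0.05, against 17.2% and 19.1% of all genes tested. At an unadjusted p under 0.05 it also gave 1 lower. DESeq2 called 13 higher and 1 lower, against 11.6% and 12.5% of all genes it tested, and limma-voom 13 and 1, against 12.9% and 13.1%. Members called lower were 2 with limma quality weights (12.7% of all genes tested) and 0 with the GC correction (14.8%). With a library left out they were 1 to 2 (9.86% to 17.0% of all genes tested), 2 arising without vehicle replicate 3. With libraries left out, 9 to 13 members were called higher, where 1303 to 1824 of all genes (9.26% to 13.0%) were, and other scalings gave 9 to 12, where 1587 to 1664 (11.3% to 11.8%) were. The replicate block left the members at 13 and 1 and gave 1500 genes higher and 1555 lower. In their deviations from the group means, same-numbered libraries correlated at -0.0554, 0.116, -0.171 and -0.177. Because vehicle replicate 3 stood so far from its group, these values cannot decide whether replicate numbers pair the libraries. The block changed no subunit gene's call, while GTF2A2 and GTF2B lost theirs.

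No member that was called changed direction. Log2 fold changes crossed 0 for 6 that were not called. With quality weights these were 0.23 (POLR1A), 0.0023 (POLR2J4, ENSG00000214783), 0.061 (POLR2J2), 0.028 (POLR2J4, ENSG00000272655) and 0.11 (POLR2J3, ENSG00000285437). Leaving out a library gave -0.15 to 0.18 for POLR1A, -0.29 to 0.069 and -0.28 to 0.13 for the POLR2J4 entries, -0.27 to 0.15 for POLR2J2, -0.19 to 0.10 for POLR2M and -0.58 to 0.028 for this POLR2J3 entry. The GC correction gave 0.0009 for POLR1A and 0.089 for POLR2J4 (ENSG00000272655), and POLR2M was at 0.045 with limma-voom and 0.042 with the replicate block. The cause was not tested.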
